A study of Mus musculus with 2 samples.

Results

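The genes described here encode the proteins of the mitochondrial ribosome. They were taken as every gene whose probe sets carry a single platform symbol that starts with Mrpl or Mrps followed by a number. By this rule 74 of the 8721 named genes of the table were members, measured by 117 of its 15340 probe sets. Where a gene had several probe sets, the one with the highest mean log2 signal stood for it. The cells were colon epithelial cells from 7-week-old mice of the inbred strain C57BL/6. They had been incubated either with buffered saline (PBS) or with MIF, read here as the cytokine macrophage migration inhibitory factor. Each incubation gave total RNA for 1 Affymetrix array. The labels name no transgene or deletion, and the sources used here do not give the dose, duration, number of animals or isolation of the cells. With 1 array per group there is no spread between samples, so differences carry no p-value and no SD between samples, and precision is limited by the number of arrays.

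Mitochondria carry their own ribosomes, which translate the few messenger RNAs of the mitochondrial genome into core subunits of the respiratory chain and of ATP synthase. The ribosomal RNAs are made inside the organelle, whereas all of its ribosomal proteins are encoded in the nucleus, made in the cytosol and imported. The large subunit joins amino acids and the small subunit reads the messenger. Some of the proteins have homologues in bacterial ribosomes and others are specific to mitochondria. Colonocytes are rich in mitochondria and oxidise butyrate, a fatty acid made by gut bacteria.

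Mitochondrial ribosomal protein genes had slightly lower signals on the MIF array, and they did so across both subunits. Of the 74 members, 60 were lower and 14 higher (81.1% lower), where 53.3% of all 5837 genes assessed were lower by any amount and 46.7% higher. The median log2 difference, MIF minus PBS, was -0.11 over the members and -0.01 over all genes assessed. The first and the third quartile of the members were -0.18 and -0.05. The lowest member was Mrps34 at -0.47 and the highest was Mrpl33 at 0.45. Of 12 colon epithelium markers, 10 were lower as well (83.3%), with a median of -0.08.

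Single differences were small. At 1.5-fold no member was lower and none higher, where 0.463% of all genes assessed were lower and 0.634% higher by that much. At 1.2-fold, a log2 difference of 0.26, 8 members (10.8%) were lower and 1 was higher, where 6.29% and 6.82% of all genes assessed were. The count of lower members was 6 with averaged probe sets and 13 with median centring. The count of higher members was 0 once the floor was raised to the 60th percentile. Most members lay within 1.2-fold.

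On both arrays all 74 members exceeded the floor set at a signal of 232, so every one was assessed and none gives only a bound. The floor was the 40th percentile of the signals of both arrays. Member signals ran from 303 for Mrpl1 to 3610 for Mrpl42, both with PBS. Among the 4377 genes above the floor within the members' range of mean signal, 52.1% were lower on the MIF array and the median log2 difference was -0.0071. The median of genes of similar signal was thus near 0, and a test of its difference from the members was not possible with these arrays.

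**Figure D1:**
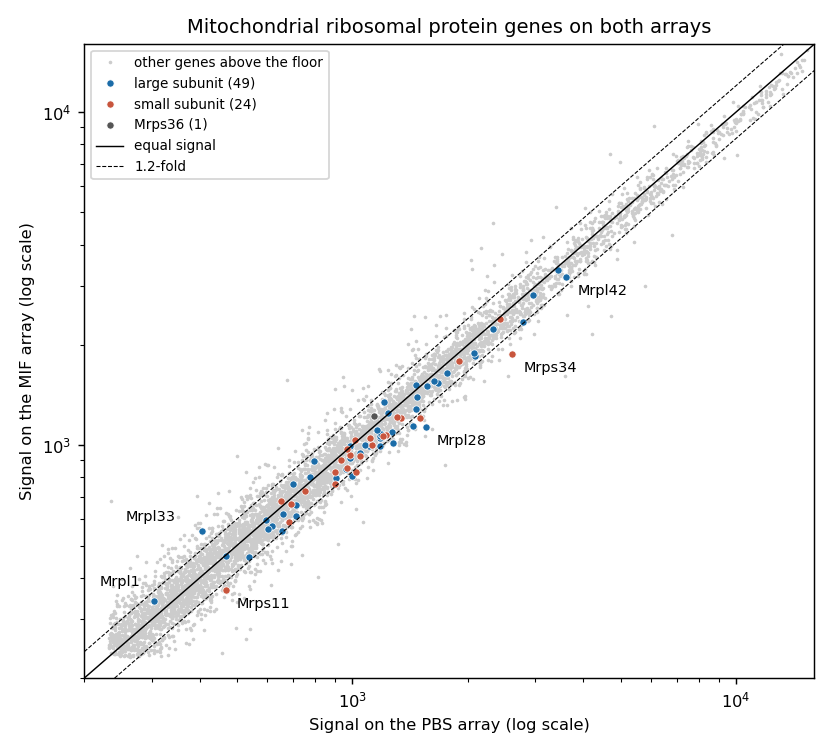
Signal of each gene on the PBS array (x axis) and on the MIF array (y axis), both on log scales, with other genes above the floor in grey, large subunit genes in blue, small subunit genes in red and Mrps36 in dark grey. The solid line marks equal signal and the dashed lines 1.2-fold; 60 of the 74 members lie under the solid line.

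The large subunit was represented by 49 genes, 39 of them lower and 10 higher, with a median log2 difference of -0.11. Mrps30 and Mrps18a are counted there, since their proteins sit in the large subunit despite their names. Mrpl28, a homologue of a bacterial large subunit protein, had a signal of 1557 with PBS and 1134 with MIF, 1.37-fold lower. Its log2 difference of -0.46 was -0.25 with averaged probe sets and -0.23 without probe sets that can cross-hybridise, both short of 1.2-fold. Mrpl2, whose bacterial counterpart lies near the site of peptide bond formation, was at 1435 and 1138, 1.26-fold lower. Mrpl4, whose bacterial counterpart lines the tunnel through which the new peptide leaves, was at 1274 and 1018, 1.25-fold lower. The fourth large subunit gene past 1.2-fold was Mrpl48, of the central protuberance that faces the small subunit, at 998 and 806, 1.24-fold lower, and at a log2 difference of -0.23, short of 1.2-fold, with averaged probe sets. Of these genes, Mrpl48 alone is specific to mitochondria.

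Parts of the large subunit with a known role are described by members picked after the values were seen, so no count over them is given. The stalk that recruits translation factors is built with the products of Mrpl10, Mrpl11 and Mrpl12, whose log2 differences were -0.13, -0.24 and -0.25. Mrpl12 went from 2777 with PBS to 2338 with MIF. In the central protuberance, beside Mrpl48, Mrpl58, which also encodes a peptide release enzyme, differed by -0.21, Mrpl46 by -0.17, Mrpl40 by -0.11 and Mrpl38 by -0.10. Around the peptide exit the genes went both ways. Mrpl45, which tethers the ribosome to the inner membrane, differed by -0.19 and Mrpl23 by -0.17, whereas Mrpl22 had nearly equal signals of 988 and 991 and Mrpl47 was higher (0.18).

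Of the 14 higher members 10 were in the large subunit, which holds 49 of all 74 members. Mrpl33, a small protein with a bacterial homologue, was at 404 with PBS and 551 with MIF, 1.36-fold higher. It was the only member past 1.2-fold in that direction, and it was not assessed with averaged probe sets. Mrpl47 was at 792 and 895, and Mrpl1, of the stalk near the exit site for transfer RNA, was at 303 and 341, each 1.13-fold higher. Mrpl32, whose protein is matured by the mitochondrial m-AAA protease before it joins the ribosome, was at 1208 and 1348, 1.12-fold higher. Mrpl50 was at 701 and 764 and Mrpl34 at 774 and 804. Apart from Mrpl50, these higher genes have bacterial homologues. Over the classes of the large subunit, 19 of 20 mitochondrion-specific genes and 20 of 29 genes with a bacterial homologue were lower, with medians of -0.15 and -0.09. The difference between the classes was not tested.

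**Figure D2:**
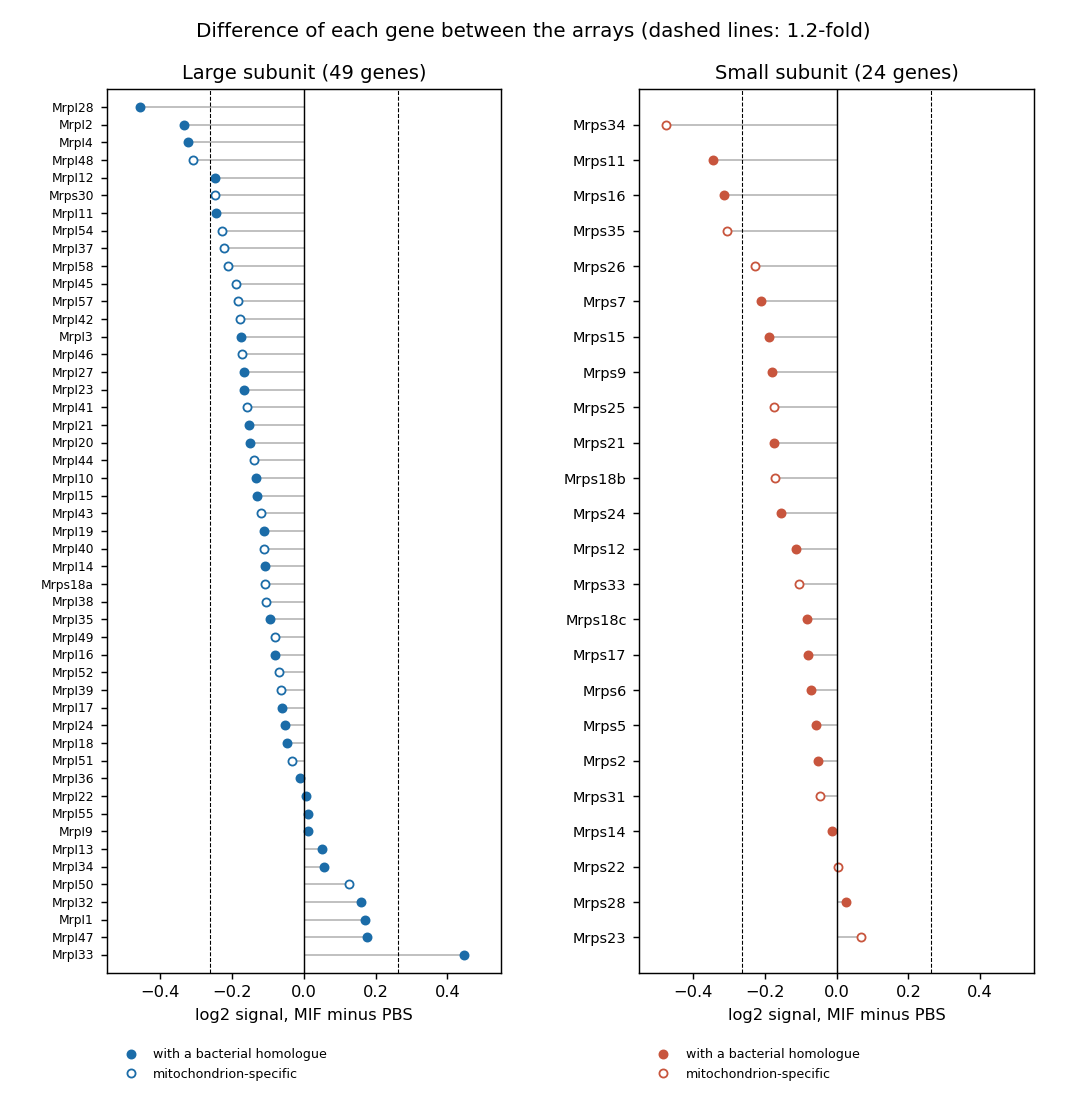
Log2 difference in signal, MIF minus PBS, of each of 49 large subunit genes (left) and 24 small subunit genes (right), sorted within each panel, with filled points for genes with a bacterial homologue and open points for mitochondrion-specific genes. Dashed lines mark 1.2-fold; 4 genes of each subunit lie beyond the left line and Mrpl33 alone beyond the right one.

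The small subunit was represented by 24 genes, 21 of them lower and 3 higher, with a median log2 difference of -0.14. The largest difference was in Mrps34, a mitochondrion-specific protein, at 2610.15 with PBS and 1878 with MIF, 1.39-fold lower. Mrps11, whose bacterial counterpart lies where the messenger leaves the subunit, was at 467 and 368, 1.27-fold lower. Mrps16 was at 1498 and 1204 and the mitochondrion-specific Mrps35 at 1025 and 829, 1.24-fold lower in each case. These 4 genes were past 1.2-fold, and no gene of the small subunit was higher by as much. Each of the 4 rests on a single probe set, as do Mrpl2 and Mrpl4 of the large subunit. Mrps12, whose bacterial counterpart takes part in decoding, differed by -0.11 and Mrps5 by -0.06. The higher genes were Mrps23 (650 and 681), Mrps28 (1014 and 1033) and Mrps22 (969 and 972), none of them by over 1.05-fold. By class, 14 of 15 genes with a bacterial homologue and 7 of 9 mitochondrion-specific genes were lower.

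Mrps18 has 3 paralogues, all of the family of a bacterial small subunit protein and placed at different sites of the ribosome. Mrps18c was counted here as its homologue, and Mrps18a and Mrps18b, which sit elsewhere, as mitochondrion-specific. All were lower on the MIF array and none reached 1.2-fold. Mrps18a was at 987 and 916, Mrps18b at 1127 and 1001 and Mrps18c at 1897 and 1792. Their log2 differences were -0.11, -0.17 and -0.08. Mrps36, which carries a ribosomal name but encodes a subunit of the 2-oxoglutarate dehydrogenase complex of the citric acid cycle, was at 1136 and 1227, 1.08-fold higher. Without it 60 of 73 members were lower and the median was still -0.11.

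Genes nearest to equal signal included members far above the floor. Mrpl51 was at 3424 with PBS and 3346 with MIF. Mrps14 was at 2421 and 2397, and Mrpl39, whose protein resembles an aminoacyl-tRNA synthetase, was at 2949 and 2820. The log2 differences of these genes were between -0.06 and -0.01. Mrpl36 was nearest to 0 among the lower genes, at 469 and 466. Mrpl42 was at 3610 and 3192, 1.13-fold lower. The measured differences thus varied among the members, with an SD over genes of 0.15. Whether this exceeds the scatter of single readings was not tested.

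Genes measured by several probe sets show how far readings of the same RNA differ. Over 1800 genes with another probe set that exceeded the floor on both arrays, the SD between a gene's probe sets was 0.13 on the log2 scale. By this yardstick 34 of 74 members were lower by more than that SD, where 21.6% of all genes assessed were, and 4 were higher by more, where 19.5% were. The other 36 members lay within it. The 4 higher ones were Mrpl33, Mrpl47, Mrpl1 and Mrpl32. This SD is that of a single probe set, and it does not include variation between preparations of cells.

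Among the members, 45 had 1 probe set, and 21 had a second that exceeded the floor on both arrays. Both probe sets were lower for 14 of these 21 and both higher for 3. Shares with both lower, both higher or opposite signs over all 1800 genes were not computed. Of the second probe sets, 71.4% were lower, where 43.4% of the second probe sets of all 1800 genes were. The median log2 difference of the members' second probe sets was -0.06, against 0.03 for all genes and -0.11 for the first probe sets of the same members. Mrpl28 was at -0.46 on its first probe set, which can cross-hybridise, and at -0.23 on the second. A further probe set of Mrpl28, also of that type, had signals of 548 and 521 and was at -0.07. Mrpl48 was at -0.31 and -0.15, and Mrpl11 at -0.24 and -0.38. The direction thus held for each of these genes while the size did not.

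On the second probe set the sign was opposite for 4 members. The gap exceeded the SD for Mrpl3 (960.4 and 851 on the first probe set, log2 differences of -0.17 and 0.02), Mrps2 (754 and 727, -0.05 and 0.11) and Mrps5 (691 and 664, -0.06 and 0.15), whereas Mrpl13, at 1465 and 1518, had 0.05 and -0.0017. With averaged probe sets Mrps2 and Mrps5 turned to 0.03 and 0.04. Further probe sets above the floor were also opposite to the first, at 0.47 for Mrpl15, 0.04 for Mrpl52 and 0.02 for Mrpl44, where the first were at -0.13, -0.07 and -0.14. Signals of these further probe sets were 302 and 420, 939 and 967, and 479 and 487. Mrpl9 was higher on both probe sets, at 0.01 and 0.32. The remaining probe set of Mrpl33 was under the floor on both arrays, so its difference rests on a single probe set. Of the 74 members, 7 were represented by a probe set of a type that can cross-hybridise. All 7 were lower, where 81.1% of all members were. The share over all genes represented by such probe sets was not computed. Leaving out such probe sets kept 70 members, 56 of them lower, with a median of -0.11.

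**Figure D3:**
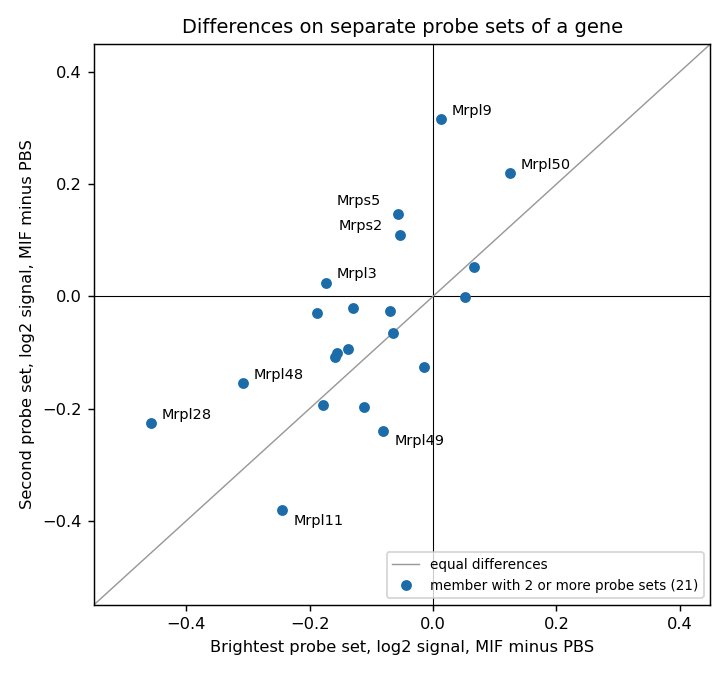
Log2 difference, MIF minus PBS, of the brightest probe set (x axis) and of the second probe set (y axis) for the 21 members whose second probe set exceeded the floor on both arrays; the diagonal marks equal differences. Of these, 14 lie in the lower left quadrant, where both probe sets are lower, and 3 in the upper right. The same shares over all genes were not computed.

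Proteins of the mitochondrial ribosome that carry other symbols were counted apart. Of 5 listed, 4 were in the table and assessed. Dap3, a GTP-binding protein of the small subunit, was at 1803 and 1528, 1.18-fold lower. Gadd45gip1, of the large subunit, was at 264 with PBS and 243 with MIF, close to the floor, and Chchd1 was at 1426 and 1392. Ptcd3, a pentatricopeptide repeat protein of the small subunit, was at 625 and 729, 1.17-fold higher. Thus 3 of these 4 genes were lower.

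Other genes of mitochondrial gene expression were about as often higher as lower. Over 54 assessed genes of 5 lists, the 4 ribosomal proteins above included, 28 were lower and 26 higher, with a median of -0.0066. Of 6 assessed translation factors, 2 were lower. Tufm, the elongation factor that delivers transfer RNA, was at 882 and 748, 1.18-fold lower, and the recycling factor gene Mrrf differed by -0.12. Gfm1, which moves the ribosome along the messenger, was at 659 and 751, 1.14-fold higher, and Gfm2, which splits the subunits, differed by 0.12. Genes that act on the same ribosome thus lay on both sides of 0.

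Of 9 assessed genes that charge or correct mitochondrial transfer RNAs, 5 were lower and 4 higher. Kars, a lysyl-tRNA synthetase that serves both cytosol and mitochondria, was at 2153 and 1742, 1.24-fold lower. Tars2 differed by -0.25 and Fars2 by -0.17. Hars2 had a MIF signal of 226 under the floor and was at least 1.28-fold lower. The isoleucyl enzyme gene Iars2 was at 593 and 708, with a log2 difference of 0.26, and Qrsl1 and Gatc of the amidotransferase differed by 0.22 and 0.19.

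Of 16 assessed genes of ribosome assembly and ribosomal RNA modification, 9 were lower and 7 higher. Ngrn, a factor of ribosomal RNA stability, was at 919 and 762, 1.21-fold lower. The ribosomal RNA methyltransferase gene Tfb1m differed by -0.19. Afg3l2 and Spg7, the subunits of the m-AAA protease, differed by 0.01 and -0.15. Mterf3, Grsf1 and the helicase gene Dhx30 differed by 0.21, 0.18 and 0.14.

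Of 19 assessed genes of mitochondrial DNA, transcription and RNA, 9 were lower and 10 higher. Pprc1, a coactivator of nuclear genes for mitochondrial proteins, was at 409.8 with PBS and 322 with MIF, 1.27-fold lower. The endonuclease gene Endog and the polymerase subunit gene Polg2 differed by -0.23 and -0.18. Pnpt1, an RNA-degrading enzyme, was at 479 and 613, 1.28-fold higher, and the nuclear receptor gene Esrra and the coactivator gene Ppargc1b differed by 0.21 and 0.18. Tfam, which packages mitochondrial DNA, was at 1083 and 1076 and the RNA polymerase gene Polrmt at 463 and 464.

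The members were next set beside the cytosolic ribosomal proteins and the subunits of oxidative phosphorylation, whose probe sets mostly had higher signals. Of 73 assessed oxidative phosphorylation genes, 64 were lower, with a median of -0.10. Of 41 assessed cytosolic ribosomal protein genes, 37 were lower, with a median of -0.07 that turned to 0.0052 when the trend of the difference with signal was removed and to 0.0039 after quantile normalization. The median of the oxidative phosphorylation list became -0.04 under each of these settings. Under the same settings the median of the mitochondrial ribosomal proteins was -0.12 and -0.13. The 3 medians were therefore close to each other on the deposited scale and apart once the trend with signal was removed, with no test of the differences between lists.

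**Figure D4:**
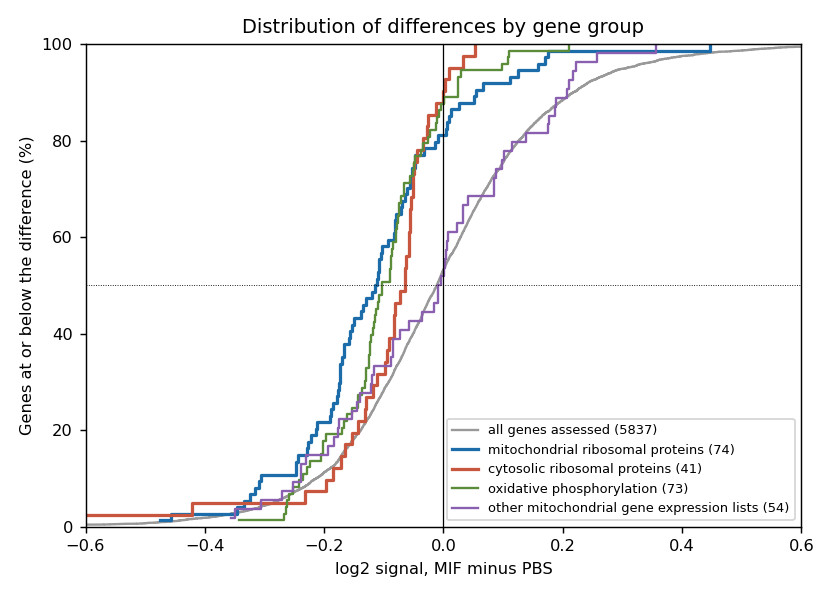
Percentage of genes (y axis) at or below each log2 difference, MIF minus PBS (x axis), on the deposited scale for the 74 mitochondrial ribosomal protein genes, 41 cytosolic ribosomal protein genes, 73 oxidative phosphorylation genes, 54 genes of the other mitochondrial gene expression lists and all 5837 genes assessed. The dotted line marks the median: -0.11 for the mitochondrial ribosomal proteins, -0.07 for the cytosolic ones (0.0052 with the trend with signal removed) and -0.0066 for the other lists.

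The promoters of the members were examined for letters that the genes have in common. RefSeq windows on GRCm38.p6, from 250 bases before to 50 bases after a start, were matched for 65 of the 74 members, with 71 windows on 16 chromosomes. The letters of 7 motifs were searched on both strands, and 3 of them belong to factors known to act on nuclear genes for mitochondrial proteins. The ETS core CCGGAAG, of the family of GABPA, was in 24 of 71 windows (33.8%), where 20.1% of 6223 windows of assessed genes and 8.86% of all 32851 windows held it. The YY1 letters AAGATGGC were in 11 windows (15.5%), where 5.30% of windows of assessed genes and 2.75% of all windows held them. The NRF1 core CGCATGCG was in 7 windows (9.86%), against 4.29% of windows of assessed genes and 1.87% of all windows. The E box CACGTG, bound by MYC among others, was in 7 windows (9.86%), against 10.7% and 7.15%. Of general promoter letters, the GC box GGGCGG was in 39 windows (54.9%), against 64.9% of windows of assessed genes. CCAAT was in 28 windows (39.4%), against 37.8%, and TATAAA in 5 (7.04%), against 7.58%.

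Members with and members without these letters both had medians below 0. The median was -0.11 over 24 members with the ETS letters and -0.11 over 41 without. It was -0.06 over 7 members with the NRF1 letters and -0.12 over 58 without. For the YY1 letters it was -0.11 over 11 members and -0.11 over 54 without. A match of letters is a description of the window and not evidence of binding. Of the factors' own transcripts, Yy1 was at 1655 with PBS and 1661 with MIF and Gabpa at 422 and 453, a log2 difference of 0.10, while Nrf1, at 132 and 121, was under the floor on both and was not assessed.

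Sites in members past 1.2-fold are shown to let the letters be read beside the differences, with the ETS or YY1 letters in capitals, on the strand of the gene, from RefSeq GRCm38.p6. A further ETS match of Mrps16 is not shown. Of the other members past 1.2-fold, Mrpl28 and Mrpl2 held no ETS, NRF1 or YY1 letters, and Mrps34, Mrpl4 and Mrps35 had no matched window. The Mrps11 site lies downstream of the start of Mrpl46, a member on the opposite strand.
Mrps11, 1.27-fold lower, chr7:78783013-78783042, plus strand: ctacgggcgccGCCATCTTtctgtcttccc
Mrps16, 1.24-fold lower, chr14:20393546-20393575, minus strand: ttgggggcgctCTTCCGGgcttcaggctct
Mrpl48, 1.24-fold lower, chr7:100583146-100583175, minus strand: ggttttaaaaaCTTCCGGaaccaagatgct
Mrpl33, 1.36-fold higher, chr5:31613937-31613966, plus strand: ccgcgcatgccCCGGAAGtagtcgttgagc
The ETS letters thus stood both in members lower on the MIF array and in the member with the largest difference the other way.

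The bases before the start are shown for the matched members with the lowest and the highest difference, Mrpl28 (-0.46) and Mrpl33 (0.45). Neither stretch held whole ETS, NRF1 or YY1 letters, so no base is in capitals.
Mrpl28, chr17:26123383-26123502, plus strand: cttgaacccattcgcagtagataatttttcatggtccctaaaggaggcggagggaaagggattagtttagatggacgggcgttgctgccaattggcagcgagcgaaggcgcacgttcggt
Mrpl33, chr5:31613831-31613950, plus strand: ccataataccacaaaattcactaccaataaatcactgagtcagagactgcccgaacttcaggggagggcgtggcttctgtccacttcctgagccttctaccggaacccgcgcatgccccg

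Many members face another gene across a short shared stretch. An opposite-strand start lay within 1000 bases upstream for 24 of 65 matched members (36.9%), where it did for 21.4% of 4822 assessed genes with a window. In a single case both genes were members. The starts of Mrps11 and Mrpl46 are 42 bases apart, and both genes were lower on the MIF array, at -0.35 and -0.17. The bases between their starts are shown as the stretch that lies before both genes.
Mrps11 and Mrpl46, chr7:78783090-78783130, plus strand: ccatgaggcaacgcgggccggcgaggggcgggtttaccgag
Of the facing genes that are no members, 8 were assessed and 7 of these were lower, where 53.3% of all genes assessed were lower. The median of the 8 was -0.09, beside -0.06 for their partners among the members. Pnpla7, which faces Mrpl41, had a MIF signal of 222 under the floor, so its difference is a bound. Tcp1, Psma2, Ndufb5 and Fau, all lower, had PBS signals of 3701, 4060, 5296 and 8654. The trend with signal was not removed for the facing genes. Klc4, which faces Mrpl2, differed by -0.09 where Mrpl2 differed by -0.33, and Fau, which faces Mrpl49, differed by -0.20 where Mrpl49 differed by -0.08. Mrpl47 and Mrpl32, which were higher, face Ndufb5 (-0.0045) and Psma2 (-0.08).

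Markers were used to check the cells named by the labels. All 12 colon epithelium markers in the table lay above the floor on both arrays, at signals of at least 5021. None was 1.2-fold lower or higher. Their median log2 difference of -0.08 turned to 0.0044 when the trend with signal was removed and to 0.0085 after quantile normalization, with 5 of 12 lower under each, where the median of the members stayed below 0. Of 6 fibroblast markers, 1 was above the floor on both arrays and 2 on the MIF array alone, and their summed signal was 711 with PBS and 1786 with MIF. Of 5 T and NK cell markers in the table, Gzma and Gzmb were above the floor, and the summed signal was 1517 and 779. Signals of Cd3g, Cd8a and Nkg7 were under the floor on both arrays, and no marker was at 0. The part of these other cells in the lower signals of the members was not tested. In bulk RNA, fewer cells of a type and less RNA per cell cannot be told apart.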

How the data were processed

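RNA of 2 incubations of mouse colon epithelial cells, PBS and MIF, was measured on 1 array each, and groups were taken from the labelled agent. Deposited was a signal intensity per probe set, already processed by the authors, whose linear scale was read from the values. Per the labels' protocols, RNA was extracted with Trizol and cRNA was biotinylated by the standard Affymetrix protocol. How probes were summarised, corrected for background, scaled and chosen is not given in the sources used here.

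Array controls (61 probe sets) were left out. Of the rest, 14049 had 1 gene symbol in the platform annotation, 490 several and 740 none, and only the first kind was named. Column medians of 337 and 346 differed by 0.04 on the log2 scale, so no scaling was added. Signals under the floor of 232, the 40th percentile, were raised to it after scaling, and log2 was taken. Genes under it on both arrays (2884) were not assessed. Differences are log2 MIF minus PBS, with no test.

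Every member may be named. Values on both arrays are given for the 8 largest differences in each direction, the 5 highest and 3 lowest mean signals and the Mrps18 paralogues. They are also given for members whose second probe set was opposed by over the SD between probe sets. In each related list of mitochondrial gene expression up to 3 genes in each direction are given, many by their log2 difference alone. Members picked by role, motif letters, printed sequences, facing genes and other genes outside this rule were chosen after values were seen, and the members and lists with earlier results of these data known. The alternatives were median centring, quantile normalization, floors at the 20th or 60th percentile or none, averaged probe sets, no _x_at or _s_at probe sets, and removal of a loess trend (span 0.3). The steps were tested on simulated data. Figures were drawn with matplotlib 3.10.9 and the loess trend was fitted with statsmodels 0.14.6, in Python 3.11.15 with pandas 2.3.3 and numpy 2.4.6.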

Additional observations from a re-analysis of the deposited data

How the results depend on the processing

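The median log2 difference of the members stayed below 0 under all 8 alternatives, between -0.15 with median centring and -0.11 with averaged probe sets, and 74.6% to 87.8% of assessed members were lower. The median over all genes assessed ran from -0.05 to 0.0039 over the same settings. With median centring 13 members, not 8, were at least 1.2-fold lower, and the share of all genes so rose from 6.29% to 8.74%. With the floor at the 60th percentile, a signal of 498, 71 members were assessed and 0 were at least 1.2-fold higher, because Mrpl33 was then a bound of 0.15. Averaging or leaving out cross-hybridising probe sets moved Mrpl28 to -0.25 and -0.23, and averaging moved Mrpl48 to -0.23, all short of 1.2-fold. With averaged probe sets 6 members were at least 1.2-fold lower. Mrps11, under the raised floor, was not assessed there. Of 219 values of 28 named members under the alternatives, 216 moved by less than the SD between probe sets and none past 1.2-fold changed sign. No paired analysis was possible because each group has 1 array, and no array could be left out. Signal over background sets the limit for members near the floor, such as Mrpl1, Mrpl33 and Mrps11.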
